A study of Mus musculus with 18 samples.

Results

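The measurements concern the RFX transcription factor genes Rfx1, Rfx2, Rfx3, Rfx4, Rfx5 and Rfx7, Rfxap, which encodes a protein associated with RFX5, and the forkhead factor gene Foxj1. Members were all probes that the array annotation assigns to these 8 symbols, out of 19057 symbols that have a probe naming a single gene. They came to 19 probes, of 34885 such probes, and each probe is described by itself because probes of a single gene did not always agree. RNA was profiled at postnatal day 1 in mice of the strain Atoh1/nGFP (C57BL/6), whose green fluorescent protein (GFP) is driven by Atoh1 sequences and marks hair cells. Cells were sorted into hair cells (HC, carrying both GFP and CD326, an epithelial surface protein), epithelial non-hair cells (ENHC, CD326-positive and GFP-negative, called ENSCs in the sample labels) and non-epithelial cells (NEC, negative for both). Each cell type came from the vestibular system and from the cochlea, which gave 6 groups of 3 arrays, 18 arrays in all, and no animal carried a knockout or received a treatment. Each array was hybridised with RNA pooled from several mice, so the spread between replicates is a spread between pools. The NEC gate was defined by the absence of both markers, and all 6 endothelial markers read were detected on every NEC array.

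RFX proteins are winged-helix factors that bind the X-box, an imperfect inverted repeat found in front of many genes of ciliary assembly. RFX1, RFX2 and RFX3 are the members best known for control of ciliary genes. FOXJ1 drives the genes of motile cilia, and RFX factors and FOXJ1 act together on many of them. RFX5 and RFXAP are known from another setting, the enhanceosome of major histocompatibility complex (MHC) class II genes. The hair cell carries a single true cilium, the kinocilium, beside the actin-based stereocilia.

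Gene windows from RefSeq (build GRCm38.p6, 250 bases before to 50 bases after the annotated start) were found for 6 of the 8 members: Rfx1, Rfx2, Rfx3, Rfx4, Rfx5 and Rfx7. The X-box half-site GTTGCC was searched on both strands, as was a longer pattern of AAC, 1 base of any kind and GTTGCC, in which the half-site stands behind the letters that end its reverse complement. The pattern was chosen after these windows had been read, so its share is a description. It stood in the windows of Rfx1, Rfx2 and Rfx3, which are shown because they are also the RFX factors with a probe detected on many arrays. Capitals mark the pattern, and each stretch is written 5′ to 3′ on the strand of the gene.
Rfx1: ggtgggtagcAACAGTTGCCccggtgaggg
Rfx2: gcagcttggtAACCGTTGCCgggcgcaacg
Rfx3: gagttatagcAACCGTTGCCttgtgaatca

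These stretches are chr8:84066823-84066852 on the plus strand for Rfx1, chr17:56831109-56831138 on the minus strand for Rfx2 and chr19:28011120-28011149 on the minus strand for Rfx3. Counted from 1 at the start and from -1 just before it, the capitals ran from -3 to 7 in Rfx1, from -120 to -111 in Rfx2 and from 28 to 37 in Rfx3. The longer pattern occurred in 44 of 32851 windows in the whole table (0.134%), and GTTGCC in 4111 windows (12.5%). The windows of Rfx4, Rfx5 and Rfx7 held neither. A match of letters is not a measured binding site.

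Signals were background-corrected, quantile-normalized and taken to log2, and a probe was called detected on an array where its detection p-value against the negative controls of that array was under 0.01. Of the 19 member probes, 8 were detected on at least 2 arrays and entered the tests. These were 3 of 4 Rfx1 probes, 1 of 2 Rfx2 probes, both Rfx3 probes and the single probes of Rfxap and Foxj1. The other 11 were left out, among them all 5 probes of Rfx4 and both probes each of Rfx5 and Rfx7. Unless another set is named, tests below are limma fits over the 24352 probes detected on at least 2 arrays, with Benjamini-Hochberg adjustment over all of them and a threshold of 0.05. These fits hold no term for the replicate number, and the member calls that changed with such a term are given in the last section. Arrays had 16668 to 19564 detected probes. Their median signal was 89.2 to 121.8 before normalization. The closest array to each of the 18 arrays was of the same cell type. The cell type labels were checked against defining markers: all 10 hair cell markers (among them Atoh1, Pou4f3 and Gfi1) were detected on all HC arrays, whereas 7 of 10 were detected on no vestibular ENHC array and 8 of 10 on no cochlear ENHC array. In bulk RNA, fewer cells that express a gene and less RNA per cell cannot be told apart.

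When HC and ENHC of the 2 organs were compared (6 against 6 arrays), Foxj1 and both Rfx3 probes were higher in HC, and no member probe was lower. These are 3 of the 8 tested member probes, against 42.9% of all tested probes that passed in either direction and 20.6% that were higher. Foxj1 was 3.56-fold higher (log2 difference 1.83 ± 0.15 SE, adjusted p = 1.22e-08). Rfx3 was 2.45-fold higher by probe ILMN_2553710 (1.29 ± 0.29, adjusted p = 0.00124) and 2.42-fold higher by probe ILMN_2708609 (1.27 ± 0.31, adjusted p = 0.00271). Rfx2 had a difference of 0.69 ± 0.28 that did not pass (adjusted p = 0.0523), and the Rfx1 and Rfxap probes did not pass either.

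**Figure D1:**
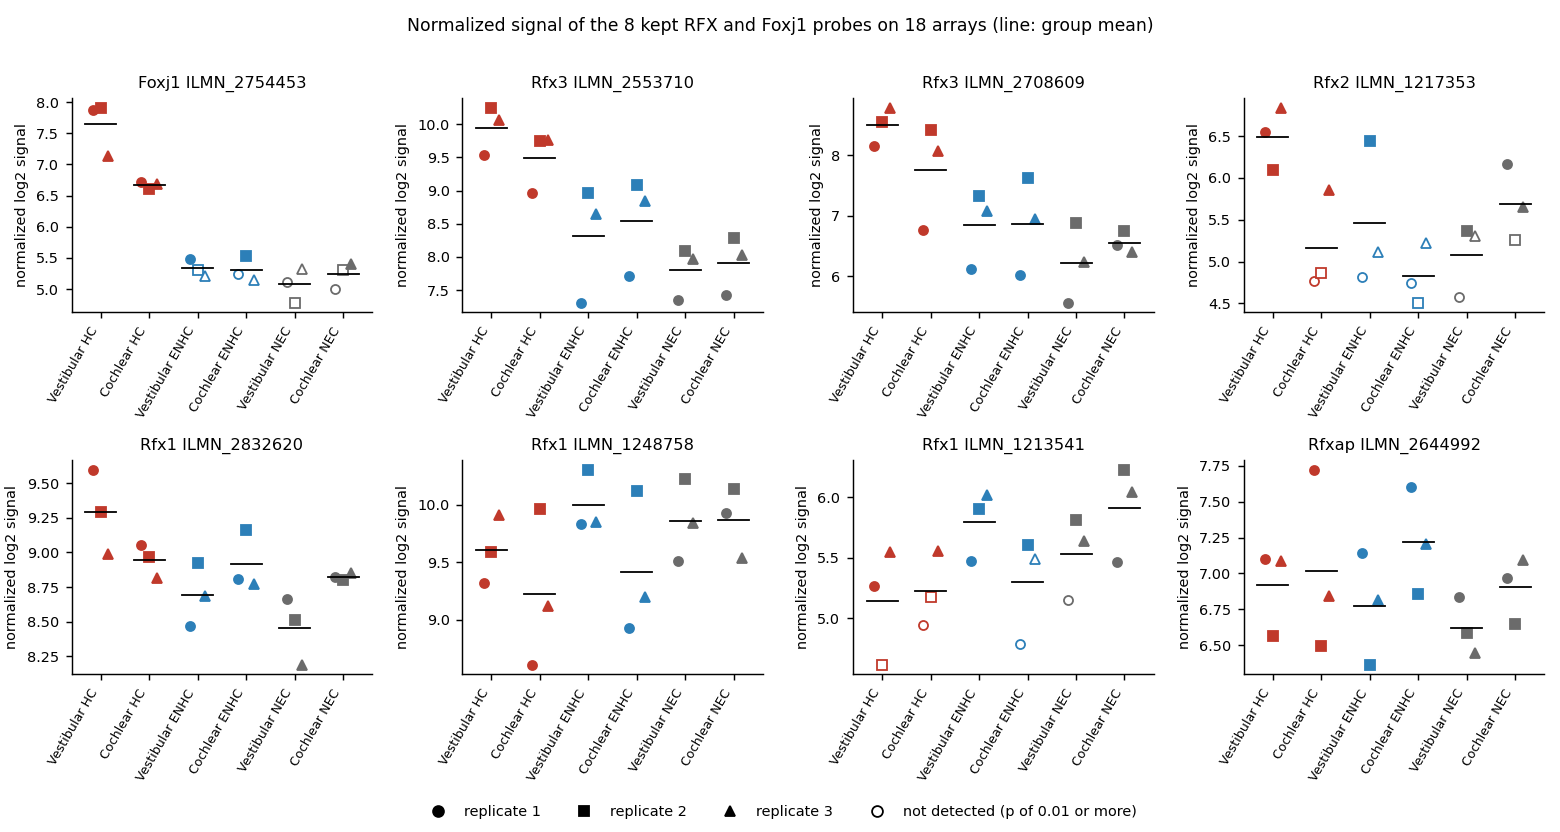
Normalized log2 signal (y axis) of the 8 tested probes, with the 6 groups on the x axis and 1 symbol per array. Open symbols mark arrays on which the probe was not detected and lines mark group means. Foxj1 was detected on 6 of 6 HC arrays and on 2 of 6 ENHC arrays, and replicate 1 (circles) was the lowest array of Rfx3 ILMN_2553710 in each of the 6 groups.

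Foxj1, the transcription factor of the motile cilium programme, was read by probe ILMN_2754453. Its normalized log2 signal was 7.88, 7.91 and 7.14 in vestibular HC, against 5.49, 5.31 and 5.22 in vestibular ENHC. In the cochlea it was 6.72, 6.60 and 6.69 in HC, against 5.25, 5.52 and 5.15 in ENHC. All 6 HC arrays lay above all 6 ENHC arrays, which held for 9.12% of the tested probes. The probe was detected on all 6 HC arrays, on 2 of 6 ENHC arrays and on 1 of 6 NEC arrays, where its 6 values lay between 4.78 and 5.41. Its ENHC and NEC signals were therefore mostly at the level of the negative controls, and its fold differences below set HC against a level measured on 1 of 3 ENHC arrays in each organ and 1 of 6 NEC arrays.

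The Foxj1 difference passed in each organ. In the vestibular system Foxj1 was 4.93-fold higher in HC (2.30 ± 0.22, adjusted p = 1.19e-07), and in the cochlea it was 2.57-fold higher (1.36 ± 0.22, adjusted p = 6.33e-05), with no overlap of the arrays in either organ (18.1% of tested probes lay wholly above in the vestibular system and 21.2% in the cochlea). Against NEC, Foxj1 was 4.0-fold higher in HC (2.00 ± 0.15, adjusted p = 2.0e-09), with all 6 HC arrays above all 6 NEC arrays, as for 13.5% of tested probes. The 2 organs' differences, both against a mostly undetected ENHC level, were 0.94 ± 0.31 apart, which did not pass (adjusted p = 0.0678), and none of the 8 member probes passed this test against 8.68% of all tested probes. Before adjustment, 1 of the 8 tested member probes, Foxj1, was under 0.05 in this limma test. The call on this organ difference depended on the scale, since it passed without background correction (0.63, adjusted p = 0.0242) and with a larger offset of 50 (0.77, adjusted p = 0.0277). It also passed without vestibular HC replicate 3 (1.19, adjusted p = 0.00923), and over all alternatives the adjusted p ranged from 0.00923 to 0.182.

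Foxj1 also separated the hair cells of the organs. It averaged 7.64 ± 0.44 in vestibular HC and 6.67 ± 0.06 in cochlear HC (SD, n = 3 each), a 1.96-fold difference (0.97 ± 0.22, adjusted p = 0.00482) with all 3 vestibular arrays above all 3 cochlear arrays, as for 10.8% of tested probes. It was 1 of 2 member probes of 8 that passed between the organs in HC, against 12.1% of all tested probes. With only these 6 arrays in the fit the adjusted p was 0.0728, the highest of its alternatives, whose lowest was 0.000555. In the other 4 groups the Foxj1 means lay between 5.07 and 5.34, and no comparison among them passed.

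Rfx3, a ciliogenic RFX factor, is read by ILMN_2553710, assigned to the cDNA record AK039823, and by ILMN_2708609, assigned to the RefSeq transcript NM_011265. Both were detected on all 18 arrays. With ILMN_2553710 the signal was 9.53, 10.25 and 10.07 in vestibular HC, against 7.31, 8.97 and 8.64 in vestibular ENHC. With ILMN_2708609 it was 8.16, 8.55 and 8.78 in vestibular HC, against 6.12, 7.32 and 7.08 in vestibular ENHC. By both probes all 3 HC arrays were above all 3 ENHC arrays, which held for 18.1% of tested probes. The differences were 1.64 ± 0.41 (3.12-fold, adjusted p = 0.00453) and 1.66 ± 0.44 (3.15-fold, adjusted p = 0.00754).

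In the cochlea, ILMN_2553710 read 8.96, 9.74 and 9.77 in HC, against 7.72, 9.08 and 8.84 in ENHC. ILMN_2708609 read 6.77, 8.43 and 8.07 in HC, against 6.02, 7.63 and 6.95 in ENHC. The groups overlapped in both, because cochlear HC replicate 1 lay below cochlear ENHC replicate 2, and for ILMN_2708609 also below replicate 3. Arrays numbered 1 were low with both probes, by 0.62 and 0.60 on average below the means of the 6 groups. Between cochlear arrays of the same number, HC lay above ENHC each time with both probes. The differences of 0.94 ± 0.41 (adjusted p = 0.0903) and 0.89 ± 0.44 (adjusted p = 0.143) did not pass. With median scaling both passed (1.07, adjusted p = 0.0141, and 1.01, adjusted p = 0.0338). Both also passed with the replicate number as a block in the limma fit (adjusted p = 0.000738 and 0.0114), though the numbers are not stated to mark a shared preparation. With quantile normalization and no term beside the group means in the fit, Foxj1 was the 1 tested member probe of 8 that passed in the cochlea, against 31.9% of all tested probes, whereas 4 of 8 passed in the vestibular system, against 30.4%. The Rfx3 differences of the organs were 0.70 ± 0.58 and 0.77 ± 0.63 apart (adjusted p = 0.601 and 0.594), so a difference between organs was not shown. The cochlear call turned with 1 array: without cochlear HC replicate 1 the difference by ILMN_2708609 was 1.38 (adjusted p = 0.0221), without cochlear ENHC replicate 2 it was 1.27 (adjusted p = 0.0488), and ILMN_2553710 passed without vestibular ENHC replicate 1 (adjusted p = 0.0440). Over all alternatives the adjusted p of the cochlear difference ranged from 0.000738 to 0.399 for ILMN_2553710 and from 0.0114 to 0.518 for ILMN_2708609.

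Rfx3 was higher in HC than in NEC as well, by 1.86 ± 0.29 with ILMN_2553710 (3.63-fold, adjusted p = 2.31e-05) and by 1.74 ± 0.31 with ILMN_2708609 (3.33-fold, adjusted p = 0.000119). This comparison uses the same HC arrays as the one above. The order of the means by ILMN_2553710 was vestibular HC 9.95 ± 0.37, cochlear HC 9.49 ± 0.46, cochlear ENHC 8.55 ± 0.73, vestibular ENHC 8.31 ± 0.88, cochlear NEC 7.91 ± 0.44 and vestibular NEC 7.80 ± 0.40 (SD, n = 3 each). Between the organs, 0 of 8 member probes passed in ENHC (8.86% of all tested probes did) and 0 of 8 in NEC (4.88%), and no member probe had an unadjusted p under 0.05 there. ENHC differed from NEC by 0.57 ± 0.29 and 0.46 ± 0.31 (adjusted p = 0.169 and 0.322), of which the first passed without cochlear ENHC replicate 1 (adjusted p = 0.0482) or vestibular ENHC replicate 1 (0.0239). Between ENHC and NEC none of the 8 member probes passed, against 27.9% of all tested probes, and none had an unadjusted p under 0.05.

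Rfx2, which in mice is known for its role in ciliated cells and in spermatid differentiation, was read by probe ILMN_1217353, detected on 8 of 18 arrays. It read 6.55, 6.09 and 6.84 in vestibular HC, against 4.77, 4.86 and 5.86 in cochlear HC. The vestibular arrays were all above the cochlear ones, as for 10.8% of tested probes, and detection held on 3 of 3 vestibular and 1 of 3 cochlear arrays. Between the organs in HC, 12.1% of all tested probes passed. The difference was 1.33 ± 0.39 (2.52-fold, adjusted p = 0.0299), and since the cochlear arrays lay mostly at background it compares a detected with a mostly undetected level. This call ended in 7 of 27 alternatives, among them leaving out cochlear HC replicate 1 (adjusted p = 0.120), cochlear HC replicate 2 (0.114), vestibular HC replicate 1 (0.0692) or vestibular HC replicate 3 (0.109), with a range of 0.00964 to 0.120.

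Against ENHC, Rfx2 in vestibular HC stood beside 4.82, 6.44 and 5.12 in vestibular ENHC. Vestibular ENHC replicate 2 was the single detected array of its group and lay within the HC range. The difference of 1.03 ± 0.39 missed the threshold (adjusted p = 0.0525), and without that array it was 1.52 (adjusted p = 0.00390). It also passed with median scaling (1.20, adjusted p = 0.0190), and without cochlear HC replicate 3 (adjusted p = 0.0414), vestibular HC replicate 2 (0.0433) or vestibular NEC replicate 1 (0.0494), in a range of 0.00390 to 0.230 over all alternatives. Over both organs the Rfx2 difference passed with median scaling (0.77, adjusted p = 0.0233) and on leaving out any of 6 arrays (cochlear HC replicates 1 and 2, vestibular HC replicate 2, cochlear ENHC replicate 3, vestibular ENHC replicate 2 and vestibular NEC replicate 1), with adjusted p from 0.00464 to 0.152 over all alternatives. Cochlear HC and cochlear ENHC differed by 0.34 ± 0.39 (adjusted p = 0.575). In NEC the probe was detected on 3 of 6 arrays and reached 6.17 in cochlear NEC replicate 1, above all cochlear HC and cochlear ENHC arrays. The second Rfx2 probe, ILMN_2429042, was detected on 0 of 18 arrays.

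**Figure D2:**
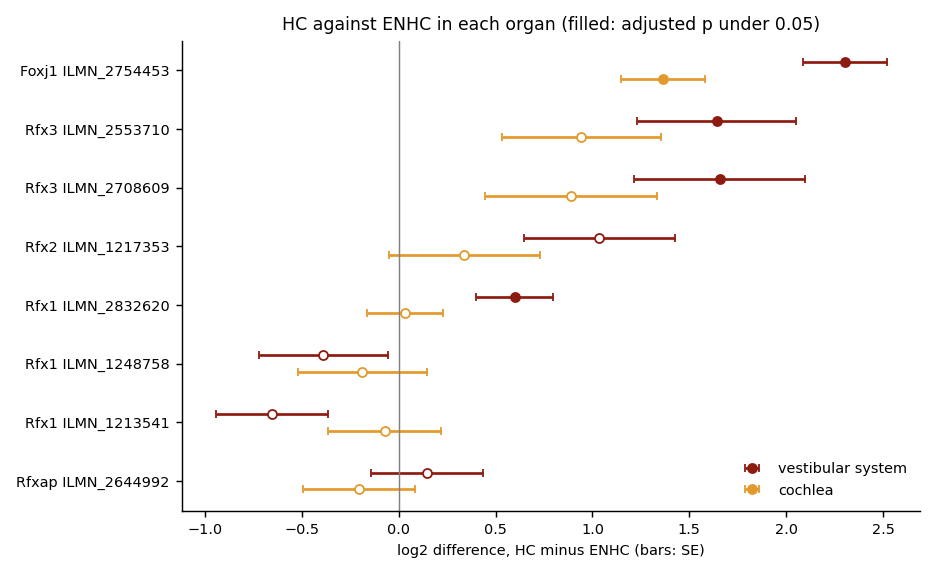
Log2 difference of HC minus ENHC (x axis) for the 8 tested probes (y axis), with the vestibular system above the cochlea and bars for the SE. Filled points passed an adjusted p of 0.05. Foxj1 passed in both organs, the Rfx3 probes and Rfx1 ILMN_2832620 in the vestibular system.

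Rfx1, the founding member of the family, is where the probes parted. ILMN_2832620, assigned to the RefSeq transcript NM_009055, and ILMN_1248758, assigned to the cDNA record AK044607, were detected on all 18 arrays. ILMN_1213541 (AK039651) was detected on 12 arrays, with raw signals of 91.1 to 153 over all 18, and ILMN_2708347, also assigned to NM_009055, on 0 arrays. Of the 2 probes assigned to the same transcript, 1 was thus detected on every array and the other on none. With all probes in the fit ILMN_2708347 was higher in cochlear HC than in cochlear ENHC by 0.21 ± 0.07 (adjusted p = 0.0441, 16.9% of all probes passing), at signals no array told from the negative controls.

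ILMN_2832620 read 9.59, 9.29 and 8.99 in vestibular HC, against 8.47, 8.92 and 8.69 in vestibular ENHC. All 3 HC arrays were above the ENHC arrays, as for 18.1% of tested probes. The difference was 0.60 ± 0.20 (1.51-fold, adjusted p = 0.0272), in a comparison that 30.4% of all tested probes passed in either direction. In the cochlea it averaged 8.95 ± 0.12 in HC and 8.91 ± 0.22 in ENHC (SD, n = 3 each), a difference of 0.03 ± 0.20 (adjusted p = 0.930), and the organs were 0.56 ± 0.28 apart in this respect (adjusted p = 0.280). The vestibular call ended with only the compared groups in the fit (adjusted p = 0.122), and without vestibular HC replicate 1 (0.45, adjusted p = 0.132), vestibular HC replicate 2 (0.60, adjusted p = 0.0567), vestibular ENHC replicate 1 (0.49, adjusted p = 0.115) or vestibular ENHC replicate 3 (0.60, adjusted p = 0.0616), in a range of 0.0101 to 0.132. Over both organs the difference of 0.32 ± 0.14 did not pass (adjusted p = 0.0760), but passed without background correction (0.27, adjusted p = 0.0373), with an offset of 50 (0.30, adjusted p = 0.0450), and without replicate 2 of cochlear ENHC (0.0458), replicate 2 of vestibular ENHC (0.0483) or replicate 3 of vestibular HC (0.0306).

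The other Rfx1 probes pointed the other way without passing. ILMN_1248758 read 9.32, 9.59 and 9.92 in vestibular HC, against 9.84, 10.30 and 9.85 in vestibular ENHC. Over both organs HC and ENHC differed by -0.29 ± 0.24 with this probe (adjusted p = 0.355) and by -0.36 ± 0.21 with ILMN_1213541 (adjusted p = 0.170). In the vestibular system the difference of ILMN_1213541 was -0.65 ± 0.29 (adjusted p = 0.102), and it passed as lower without vestibular HC replicate 3 (-0.86, adjusted p = 0.0467). Against NEC, the Rfx1 probes received opposite calls. ILMN_2832620 was 1.39-fold higher in HC (0.48 ± 0.14, adjusted p = 0.00714), ILMN_1213541 was 1.45-fold lower in HC (-0.54 ± 0.21, adjusted p = 0.0344), and ILMN_1248758 differed by -0.45 ± 0.24 (adjusted p = 0.122; 0.0231 without cochlear HC replicate 2). Of the 8 tested member probes 4 were higher and 1 was lower in HC than in NEC, against 53.6% of all tested probes that passed, 26.7% higher and 26.9% lower. The lower call of ILMN_1213541 ended in 10 of 27 alternatives, 7 of which left out an array (cochlear HC replicates 1 and 2, vestibular HC replicate 2, and replicates 2 and 3 of cochlear and of vestibular NEC), with adjusted p from 0.00883 to 0.101. Its detection on 3 of 6 HC and 5 of 6 NEC arrays also means that the lower level was partly a background level.

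The disagreement of the probes was tested on the difference between probes of a gene on each array, with adjustment over 12692 such pairs. For ILMN_1213541 minus ILMN_2832620, the change of HC against ENHC differed by -0.68 ± 0.24 over both organs (adjusted p = 0.0786, and 0.0179 without vestibular HC replicate 3) and by -1.25 ± 0.35 in the vestibular system (adjusted p = 0.0329). For ILMN_1248758 minus ILMN_2832620 it differed by -0.60 ± 0.26 (adjusted p = 0.155, and 0.0499 without cochlear HC replicate 2), and for ILMN_1213541 minus ILMN_1248758 by -0.07 ± 0.24 (adjusted p = 0.910). For the Rfx3 pair it differed by 0.02 ± 0.19 (adjusted p = 0.973). Over both organs 0 of the 4 member pairs passed and 2 had an unadjusted p under 0.05, against 1781 of 12692 pairs of 5126 genes (14%). In the vestibular system ILMN_1213541 minus ILMN_2832620 was the only member pair that passed, and the share over all pairs was not counted there. ILMN_1213541 was near background there, detected on 2 of 3 vestibular HC arrays (raw signals 91.1 to 130.5) and 3 of 3 vestibular ENHC arrays (114.1 to 133.5). Over the 18 arrays, which share their groups, the Rfx3 probes correlated at r = 0.95, while ILMN_2832620 correlated with ILMN_1248758 at -0.23 and with ILMN_1213541 at -0.36. ILMN_1248758 and ILMN_1213541 correlated with each other at 0.59, and the median over all pairs was 0.59.

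**Figure D3:**
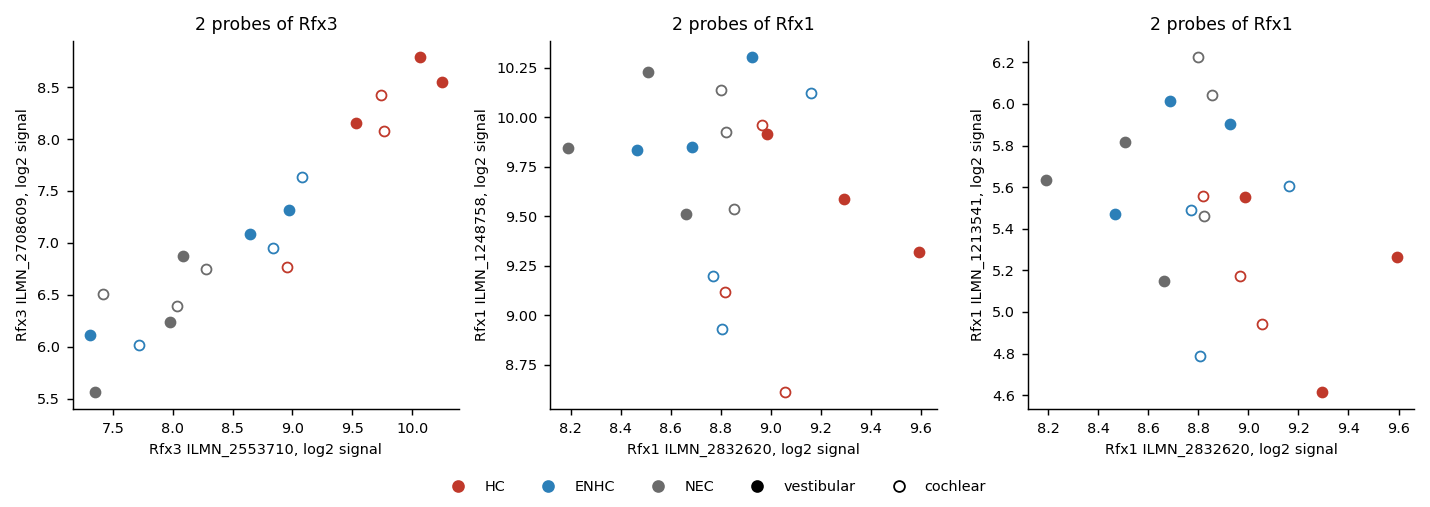
Normalized log2 signal of probes of the same gene against each other, 1 point per array, filled for vestibular and open for cochlear groups. The Rfx3 probes (left, r = 0.95) vary together, with most HC arrays at the upper end. Cochlear HC replicate 1 (8.96 and 6.77) lies below cochlear ENHC replicate 2 (9.08 and 7.63) on both axes. Rfx1 ILMN_2832620 (x axis) does not vary with ILMN_1248758 (middle, r = -0.23) or ILMN_1213541 (right, r = -0.36).

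Rfxap, whose protein is a subunit of the RFX5 complex on MHC class II promoters, was detected on all 18 arrays by probe ILMN_2644992. It read 7.10, 6.57 and 7.08 in vestibular HC and 7.72, 6.49 and 6.84 in cochlear HC. In ENHC it read 7.14, 6.36 and 6.81 in the vestibular system and 7.60, 6.86 and 7.21 in the cochlea. The groups overlapped throughout, and HC differed from ENHC by -0.03 ± 0.20 (adjusted p = 0.930), a sign that turned to 0.15 with median scaling. In NEC it read 6.83, 6.59 and 6.44 in the vestibular system and 6.97, 6.65 and 7.09 in the cochlea. The test for any difference among the 6 groups did not pass (adjusted p = 0.509). That test passed for Foxj1 (adjusted p = 1.51e-08), both Rfx3 probes (0.000613 and 0.00191), Rfx2 (0.0143) and Rfx1 ILMN_2832620 (0.0245), 5 of 8 against 57.3% of all tested probes.

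The 11 probes left out had raw signals of 74.9 to 134.7. Among them 9 were detected on 0 of 18 arrays, including 4 of 5 for Rfx4, both for Rfx5 and 1 of 2 for Rfx7. Rfx4, known from brain development, passed detection once, with ILMN_2722156 in cochlear HC replicate 1, at a detection p-value of 0.00748. Rfx7 passed once, with ILMN_2512636 in cochlear HC replicate 2, at 0.00855. In each case the other replicates of the group did not pass, so no level was established. Rfx5, which binds the X-box of MHC class II promoters together with RFXAP, came closest to detection in vestibular HC.

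Rfx5 probe ILMN_1237656 had detection p-values of 0.0470, 0.0171 and 0.0395 in vestibular HC, against 0.348, 0.155 and 0.181 in vestibular ENHC. Its normalized values were 4.87, 5.16 and 4.81 in vestibular HC, against 4.48, 4.64 and 4.59 in vestibular ENHC, so that the groups did not overlap. HC lay wholly above ENHC there for 18.1% of the tested probes, a set without this probe, and the share over all probes was not counted. With all 45281 probes in the fit the difference was 0.38 ± 0.10 (adjusted p = 0.0189), where 15.8% of all probes passed. It was 0.27 ± 0.07 over both organs (adjusted p = 0.0122, 23.1% of all probes passing) and 0.16 ± 0.10 in the cochlea (adjusted p = 0.382). The second Rfx5 probe, ILMN_2618625, had its lowest detection p-value, 0.0235, in vestibular NEC replicate 1. No array reached the detection threshold with either probe.

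**Figure D4:**
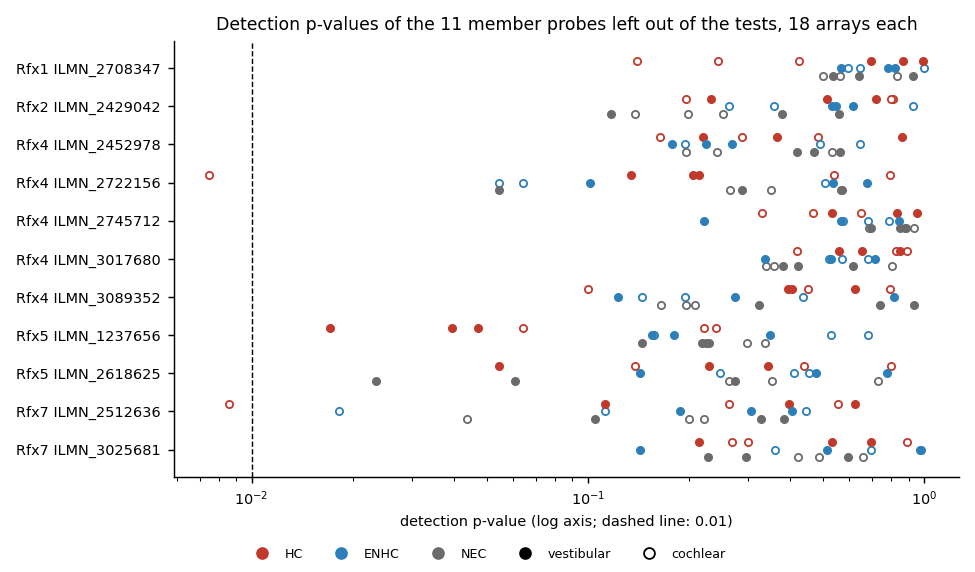
Detection p-value (x axis, log scale) of the 11 member probes left out of the tests (y axis), 18 arrays each, filled for vestibular and open for cochlear groups. Single cochlear HC arrays lie left of the dashed line at 0.01 for Rfx4 ILMN_2722156 and Rfx7 ILMN_2512636, and the 3 vestibular HC arrays of Rfx5 ILMN_1237656 lie between 0.0171 and 0.0470.

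Genes with known ties to these factors were read from lists, with 1 probe a gene. Of 69 listed genes of the motile cilium, which FOXJ1 is known to drive, 50 were measured, and 24 of these passed the detection filter only through the HC arrays, a route open to genes that are high there. Of the other 26, detected on at least 2 ENHC or NEC arrays, 24 were higher and 0 lower in HC than in ENHC, with the fit and the adjustment over probes that met this narrower filter, which was chosen after the data had been seen. Over all 11059 genes that met it, 18.3% were higher and 26.5% lower. Over all 50 genes, those that entered through HC included, 47 were higher and 0 lower, beside 21.8% higher and 24.7% lower over 12002 genes. The median over the 50 was 2.21 on the log2 scale, or 1.94 with the 20 genes detected on no ENHC array set at their bound. Cfap206, a ciliary protein of the radial spokes, was at least 31.8-fold higher and Fam183b at least 20.3-fold higher, both detected on 6 of 6 HC and 0 of 6 ENHC arrays. The bound sets HC against the lowest detected signal of the ENHC arrays. The dynein light chain gene Dynlrb2, detected on all 12 arrays, was 29.5-fold higher. Cfap45, a protein inside the ciliary doublet microtubules, was detected on 6 of 6 HC and 2 of 6 ENHC arrays, so its fitted 31.0-fold difference is against a mostly undetected level. The 3 genes that did not pass were Ak7, Dnah2 and Dnah11.

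The motile cilium genes were next read in each organ. In the vestibular system 48 of 50 were higher in HC than in ENHC and 0 lower, with a median of 3.11 (2.75 with 24 genes detected on no ENHC array there at their bound), and in the cochlea 38 were higher and 1 (Dnah11) was lower, with a median of 1.52 (1.46 with 29 such genes at their bound). Among the 26 genes detected on at least 2 ENHC or NEC arrays, 24 were higher and 0 lower in the vestibular system (13.4% and 18.4% of all genes under that filter), and 22 were higher and 1 lower in the cochlea (13.5% and 20.3%). Over all 12002 genes 16.4% were higher in HC in each organ, while 17.3% were lower in the vestibular system and 19.0% in the cochlea. The differences of the organs passed in 28 of 50 genes, all larger in the vestibular system, against 4.83% of all tested probes. The fitted vestibular value was the larger in 49 of 50, a count that holds the 24 genes that entered only through HC arrays, and its share over all genes was not counted. Of these 28 genes, 19 were undetected in all ENHC arrays of at least 1 organ, so that their values set HC against background. Among the 26 genes the organs' differences passed in 14, all larger in the vestibular system, beside 5.22% of all genes under that filter that were larger there and 3.60% that were smaller. Their median was 1.17, beside 0.03 over all genes under that filter. Fam183b was at least 51.9-fold higher in HC in the vestibular system and at least 7.94-fold higher in the cochlea.

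**Figure D5:**
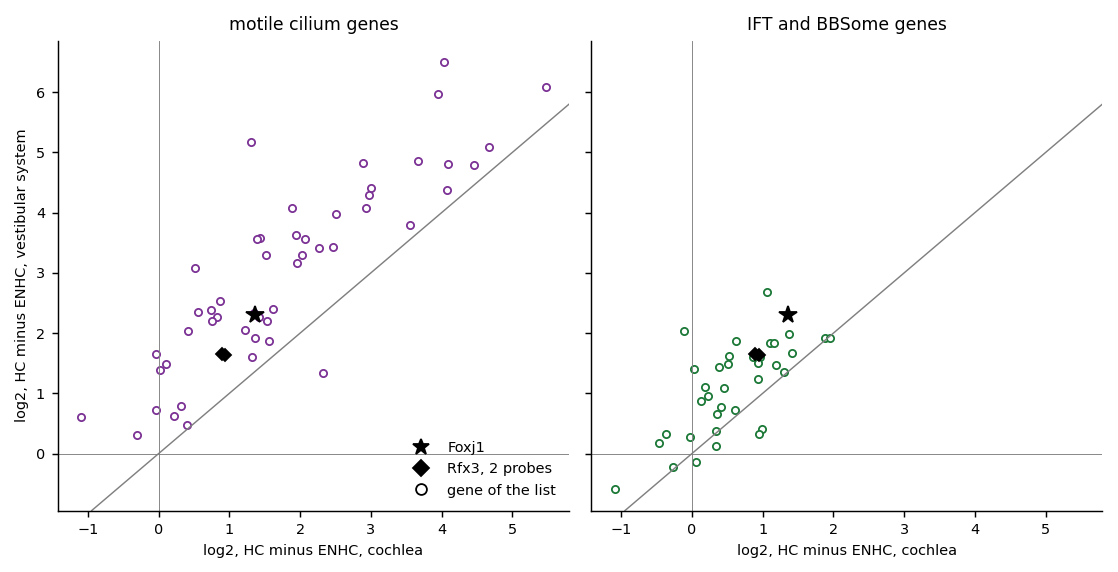
Log2 difference of HC minus ENHC in the vestibular system (y axis) against the cochlea (x axis) for the 50 motile cilium genes (left) and the 36 IFT and BBSome genes (right), 1 circle a gene, with Foxj1 (star) and the Rfx3 probes (diamonds) in both panels. The line marks equal differences, and 49 of the 50 motile cilium genes lie above it, the 24 that entered only through HC arrays included in the 50. Fitted differences are plotted, also for genes detected on no ENHC array of an organ (29 of 50 in the cochlea, 24 of 50 in the vestibular system).

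Intraflagellar transport (IFT) trains build the cilium and the BBSome moves membrane proteins through it, and promoters of these genes are classical RFX targets. Of 36 measured genes 29 were higher and 1 lower in HC than in ENHC, beside 21.8% and 24.7% of all genes, and of the 32 detected on at least 2 ENHC or NEC arrays 25 were higher and 1 lower. The 36 differences had a median of 0.84, or 0.71 with 4 genes undetected on a side at their bound. The largest differences were those of Dync2h1, the retrograde motor (3.81-fold, adjusted p = 3.12e-09), Ift172 (3.72-fold, adjusted p = 3.69e-08), Bbs5 (3.65-fold, adjusted p = 5.34e-08) and Ift80 (3.19-fold, adjusted p = 1.56e-08). The lower gene was Ttc21b (adjusted p = 0.00190), at least 1.20-fold. In the vestibular system 26 were higher and 0 lower, and in the cochlea 17 were higher and 1 lower, beside 16.4% of all genes higher in each organ. The organs' differences passed in 5 of 36 genes, all larger in the vestibular system, beside 4.83% of all tested probes.

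The promoter windows of the same genes were searched for the X-box letters. GTTGCC stood in 14 of 31 windows of IFT and BBSome genes (45.2%) and in 18 of 47 windows of motile cilium genes (38.3%), beside 12.5% of all windows. The full inverted pair, GTTNCC and GGNAAC with 0 to 3 bases between, stood in 3 of 31 windows (Lztfl1, Bbs7 and Ift57) and in 2 of 47 windows (Pifo and Fam183b), beside 0.804% of all windows. Pifo, Fam183b and Lztfl1 are shown as examples of the complete element at genes higher in HC, with the element in capitals.
Pifo: gcggttccGTTCCCTTGGCAACgtagtaca
Fam183b: gaacatccGTTGCCTGGAAACtgtagaaga
Lztfl1: tttctctGTTGCCATTGGCAACggcaggca

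These stretches are chr3:106001496-106001525, chr11:58801955-58801984 and chr9:123717767-123717796 of GRCm38.p6, each on the minus strand. The capitals ran from -20 to -7 in Pifo, from -16 to -4 in Fam183b and from -164 to -150 in Lztfl1. Pifo, a protein of ciliary disassembly, and Fam183b were detected on no ENHC or NEC array, so both entered the tests only through HC arrays. Pifo was at least 13.9-fold higher in HC than in ENHC. Its adjusted p of 8.88e-15 in the limma fit belongs to the fitted difference against background, not to this bound. Lztfl1, which regulates the BBSome, was 2.33-fold higher (adjusted p = 2.11e-06). Bbs7 (1.65-fold, adjusted p = 0.00127) and Ift57 (1.41-fold, adjusted p = 0.00420) were higher as well. None of the member windows held the inverted pair.

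Of 15 listed MHC genes, among them the known class II targets of the RFX5 and RFXAP complex, 6 were measured, of which 4 were lower and 1 was higher in HC than in ENHC, beside 24.7% and 21.8% of all genes. B2m, the light chain of class I molecules, was lower in HC than in ENHC by 4.63-fold (-2.21 ± 0.13, adjusted p = 1.48e-10), as were the class I genes H2-K1 (2.03-fold, adjusted p = 9.16e-05) and H2-D1 (1.71-fold, adjusted p = 0.000196). H2-DMb1, a class II peptide loading gene, was lower by at least 1.45-fold (adjusted p = 5.26e-06), H2-DMb2, detected on 4 of 6 HC and 1 of 6 ENHC arrays, was 1.73-fold higher (adjusted p = 0.00963) and H2-DMa did not pass (adjusted p = 0.885). The classical class II genes H2-Aa, H2-Ab1 and H2-Eb1 and Cd74 were detected on no HC or ENHC array. Rfxank, the third subunit of the complex, was detected on no array, nor were Rfx6 and Rfx8.

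Regulators that act upstream of FOXJ1 or of multiciliation were mostly undetected. Gmnc, Mcidas, Ccno, Cdc20b, Deup1, Trp73 and Noto were detected on no HC array. Of the 5 measured genes, Tfdp1, a partner of E2F factors, was 1.52-fold higher in HC (adjusted p = 0.0205) and Gmnn, which encodes geminin and was detected on 0 HC and 3 ENHC arrays, was lower (adjusted p = 0.0410), while E2f4, E2f5 and Myb did not pass (adjusted p = 0.739, 0.0627 and 0.241). The Tfdp1 call ended when any of cochlear ENHC replicate 1, vestibular HC replicate 2 or vestibular ENHC replicate 1 was left out. Of the subunits of NF-Y, which binds next to the X-box on MHC promoters, Nfyc was 1.42-fold lower (adjusted p = 0.00453), while Nfya and Nfyb did not pass (adjusted p = 0.119 and 0.0566), nor did Creb1 (adjusted p = 0.377).

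Markers of other cell types were read from the same arrays, beside 21.8% of all genes higher and 24.7% lower in HC than in ENHC over both organs. All 7 probed markers of multiciliated cells (among them Ccno, Mcidas and Deup1) were detected on 0 HC and 0 ENHC arrays. Neuronal markers moved with the HC label: 4 of 6 measured markers were higher in HC than in ENHC and 1 was lower, and the summed level of 7 markers was 694 to 1091 in vestibular HC and 165 to 179 in vestibular ENHC, and 1132 to 1317 in cochlear HC and 382 to 651 in cochlear ENHC. The neuronal markers Tubb3, Stmn2 and Prph were detected on no HC array, whereas Snap25, Syt1, Elavl4 and Nefl were detected on all of them. Mesenchymal markers were lower in HC in 7 of 8 and higher in 0, with summed levels of 427 to 576 in vestibular HC and 1563 to 2103 in vestibular ENHC, and of 327 to 401 in cochlear HC and 2895 to 3111 in cochlear ENHC. Markers of Schwann cells and glia were lower in 3 of 4, with 389 to 835 in vestibular HC and 1228 to 1468 in vestibular ENHC, and 242 to 403 in cochlear HC and 1107 to 1453 in cochlear ENHC. The remaining glial marker, S100b, did not pass over both organs and was higher in vestibular HC (mean log2 signal 7.41) than in vestibular ENHC (6.24). Of 10 markers of ENHC and other epithelium, 8 were lower and 2 higher in HC, with 8263 to 10642 in vestibular HC and 14944 to 18025 in vestibular ENHC, and 6372 to 7509 in cochlear HC and 13113 to 16022 in cochlear ENHC. The part of these marker differences in the results above, the MHC genes included, was not tested.

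The probes whose signals most resembled each member over the 18 arrays were found among all other genes, as a description, since all share the same arrays and groups. Foxj1 was most like Ccdc68 (r = 0.98), Ttc29 (0.98) and Odf3b (0.98), each detected on 6 of 18 arrays. Their rank correlations with Foxj1 were 0.92, 0.79 and 0.72. Both Rfx3 probes had the same closest probe, that of the kinase gene Nek4 (r = 0.96 for ILMN_2553710 and 0.96 for ILMN_2708609), followed by Cers6 (0.96) for the first and Akap9 (0.93) for the second. Rfx2 was most like Chd5 (0.83), Clspn (0.81) and the axonemal dynein gene Dnaic1 (0.78), detected on 10, 2 and 9 of 18 arrays. The Rfx1 probes had no such gene in common: ILMN_2832620 was closest to the transition zone gene Tctn3 (0.85), ILMN_1248758 to Gnaq (0.97) and ILMN_1213541 to Atm (0.84). The Tctn3 probe was detected on 8, the Gnaq probe on 18 and the Atm probe on 3 of 18 arrays. Correlations with rarely detected probes rest largely on background values. Rfxap was most like Hif1an (0.91).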

How the data were processed

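RNA of the sorted cells was amplified and hybridised to Illumina MouseRef-6 v2 bead arrays. The authors deposited unnormalized signals (intensity) and detection p-values of all probes, and a second table that they quantile-normalized, used here as an alternative. Probe symbols came from the platform annotation: 34885 of 45281 probes had 1 symbol, 18 several and 10378 none. With limma 3.58.1 in R 4.3.3, deposited signals were background-corrected by normexp from the detection p-values (offset 16), quantile-normalized and taken to log2. Tests used the probes that 2 or more arrays detected at a p-value below 0.01. All 18 arrays entered 1 fit with 6 group means, and contrasts used moderated statistics with Benjamini-Hochberg adjustment. The fits were tested on simulated data with noise drawn independently for each array. Such data lack the correlation between same-numbered arrays given below, so they cannot judge a fit without a replicate term. Differences between probes of a gene were fitted the same way. Lists were read with the probe of highest mean per gene. An "at least" fold sets the detected group against the lowest signal detected on the arrays of the other, or the probe's own signal where higher. An adjusted p printed beside such a fold belongs to the fitted difference, not to the bound. The number of arrays limits the precision. Members and lists were chosen with earlier results of these data known. Every member probe was named, as were up to 4 called genes of largest difference per list, every measured gene of lists with under 10, and the closest probes in pattern; Ttc21b, Ak7, Dnah2, Dnah11 and the genes named for a promoter match were chosen after their values were seen. Alternatives covered background, scaling, filters, arrays in the fit, moderation, a replicate block and leaving out each array.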

Additional observations from a re-analysis of the deposited data

Results flagged for a closer look

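No member probe passed the test of a difference between the organs, and 7 of the 31 measured genes named from the pathway lists did, beside 8.68% of all tested probes. Of the 31, 8 were named for the size of their HC minus ENHC difference, 15 as measured genes of short lists and 8 after their values had been seen, so the count is a description. Each is given as the HC minus ENHC difference in the vestibular system minus that in the cochlea, on the log2 scale. Among the cilium genes, Fam183b differed by 2.46 (adjusted p = 1.58e-05) and Cfap45 by 2.02 (adjusted p = 0.000367). Fam183b was detected on 0 of 6 ENHC arrays and Cfap45 on 2 of 3 vestibular and 0 of 3 cochlear ENHC arrays, so these fitted values set HC against a level that was mostly background. Dnah11, an axonemal dynein gene detected on all HC and ENHC arrays, differed by 1.70 (adjusted p = 0.000430), with 0.60 in the vestibular system and -1.10 in the cochlea. Bbs5 differed by 1.63 (adjusted p = 0.00434), with 2.68 in the vestibular system and 1.05 in the cochlea, and Bbs7 by 1.38 (adjusted p = 0.00912), with 1.41 and 0.03. Of the MHC genes, B2m differed by 1.11 (adjusted p = 0.0115), with -1.65 in the vestibular system and -2.77 in the cochlea. H2-D1 differed by -1.37 (adjusted p = 0.00353), with -1.46 in the vestibular system and -0.09 in the cochlea.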

How the results depend on the processing

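Of 15 member results that passed, 11 passed under every alternative and 0 reversed, and 34 of 45 that did not pass stayed so throughout. Without background correction, and likewise with an offset of 50, 1 member probe passed for the organ difference (Foxj1) and 1 probe pair passed (ILMN_1213541 minus ILMN_2832620 of Rfx1, -0.41 and -0.50), while ILMN_1213541 minus ILMN_1248758 turned to 0.12 and 0.0727. Rfx1 ILMN_2832620 passed over both organs under both settings. With median scaling 3 probes passed in the cochlea, Rfx2 passed over both organs and in the vestibular system, and Rfxap turned to 0.15 over both organs. That scaling moved the median of all probes to 0.07, against -0.03 with quantile normalization, and the calls to 5352 higher and 3925 lower, against 5022 and 5434. With no detection filter 2 probes passed in the cochlea, Foxj1 and Rfx1 ILMN_2708347, the latter detected on 0 of 18 arrays. Under that setting 1 probe, Foxj1, passed between vestibular and cochlear HC. With only the groups compared 0 passed between vestibular and cochlear HC, and with an unmoderated model 1 passed.

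Replicate numbers are not stated to mark a shared preparation. Same-numbered arrays correlated in their deviations from the group means at over 0.1 in 39 of 45 pairs (lowest -0.03, median 0.27, against -0.14 for different numbers), and for 17 of 18 arrays the closest array of another group had the same number, a hint of pairing from the data. Pairing was taken as shown only with every pair over 0.1, which was not met. With the replicate number as a block, 5 member probes passed over both organs (Rfx1 ILMN_2832620, adjusted p = 0.0466, and Rfx2, 0.0447, beside Foxj1 and Rfx3), 3 in the cochlea (Foxj1 and both Rfx3 probes, adjusted p = 0.000738 and 0.0114), 1 between ENHC and NEC (Rfx3 ILMN_2553710, 0.00295), and 1 probe pair. The block also gave a call to Rfx2 (higher, 0.0435) and Rfx1 ILMN_1213541 (lower, 0.0339) in the vestibular system, and to Rfx1 ILMN_1248758 (lower, 0.0299) against NEC. With detection required on at least 2 ENHC or NEC arrays, chosen after seeing the data, 24 motile cilium genes and 0 MHC genes were higher in HC, against 47 and 1, since fewer genes were tested.

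Leaving out each array gave 3 to 5 member probes passing for HC against ENHC over both organs, 1 to 2 in the cochlea, 3 to 5 in the vestibular system, 4 to 5 for HC against NEC, 0 to 1 for ENHC against NEC, 1 to 2 between vestibular and cochlear HC, 0 to 1 for the organ difference, 4 to 5 for any difference and 0 to 1 probe pairs. It gave 28 to 29 IFT and BBSome genes, 46 to 47 motile cilium genes and 0 to 1 upstream regulators higher in HC. Signs turned only among results that had not passed. In the cochlea the ranges were -0.33 to 0.0842 for Rfx1 ILMN_1213541, -0.55 to 0.17 for ILMN_1248758, -0.0365 to 0.16 for ILMN_2832620, -0.009 to 0.54 for Rfx2 and -0.55 to 0.0602 for Rfxap. Rfxap ranged from -0.20 to 0.10 over both organs, from -0.0596 to 0.33 in the vestibular system and from -0.36 to 0.25 between vestibular and cochlear HC, where Rfx1 ILMN_1213541 ranged from -0.28 to 0.18. The organ difference of ILMN_1248758 ranged from -0.55 to 0.16, the Rfx3 pair from -0.10 to 0.12 and the pair ILMN_1213541 minus ILMN_1248758 from -0.19 to 0.12. The causes of these changes were not tested. Signals near the negative controls limit Rfx2, Rfx1 ILMN_1213541 and Foxj1 outside HC.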
